A study of Mus musculus and Homo sapiens with 22 samples.

Results

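The 10 genes described here encode p53 (Trp53), its inhibitors Mdm2 and Mdm4, and direct p53 targets (Cdkn1a, Ccng1, Ei24, Sesn1, Trp53inp1, Zmat3 and Phlda3; Mdm2 is a target as well). They were chosen by name as mouse p53 pathway genes, with earlier results of these data known. They are 10 of the 22667 genes listed in the N2A files. All 10 passed the filter on low values and were tested. By Ensembl gene they are Trp53 (ENSMUSG00000059552, chromosome 11), Mdm2 (ENSMUSG00000020184, 10), Mdm4 (ENSMUSG00000054387, 1), Cdkn1a (ENSMUSG00000023067, 17), Ccng1 (ENSMUSG00000020326, 11), Ei24 (ENSMUSG00000062762, 9), Sesn1 (ENSMUSG00000038332, 10), Trp53inp1 (ENSMUSG00000028211, 4), Zmat3 (ENSMUSG00000027663, 3) and Phlda3 (ENSMUSG00000041801, 1). N2A is a mouse neuroblastoma line, and RNA-seq was made after loss of one of 3 splicing regulators. In the siRNA experiment, cells received an siRNA pool against U2af65 (siU2af65, 1 library), a pool against Ptbp1 (siPtbp1, 1 library) or a non-targeting pool (siCtrl, libraries a and b), and were harvested 48 hours later. The siU2af65 library carries the letter a and the siPtbp1 library the letter b. In the hairpin experiment, stable populations under 2 ug/mL puromycin carried a lentiviral hairpin against the 3′ untranslated region of nSR100 (shnSR100, gene Srrm4) or against GFP (shGFP), with 1 file each, made from 2 runs of different read length that were combined. Whether the control libraries are separate cultures is not in the labels, so a p-value here rests on the spread of these libraries alone, and that spread may be technical. The question asked of these genes was whether loss of a splicing factor goes with higher p53 targets.

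p53 is a transcription factor that stress signals stabilise, and it switches on genes for cell cycle arrest, cell death, DNA repair and antioxidant defence. Mdm2, itself a target, is a ubiquitin ligase that sends p53 for degradation, and Mdm4 binds p53 and blocks its activity, so the pair forms a feedback loop. p53 activity is set largely by the amount and modification of the protein, which RNA-seq does not measure. Mdm4 is known in mouse neural progenitors as a transcript whose splicing responds to loss of splicing regulators and feeds back on p53. The files give 1 value per gene and do not show exon use.

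p53 binds a pair of adjacent 10-base repeats, each with a C and a G at fixed places in its centre. The RefSeq promoter table (GRCm38.p6, 250 bases before to 50 after each start) held 8 of the 10 genes. Trp53inp1 and Zmat3 were not matched. On both strands, 20-base windows with no spacer that held all 4 of those fixed bases were compared with the full p53 consensus. The 8 genes had 11 promoters, and the best window per gene is given, whereas the shares below count single promoters. The other promoters of Cdkn1a and Sesn1 matched at 13 and 12 bases, and the other Mdm4 promoter held no such window. The best windows of 4 genes matched at 17 or more of 20 bases, and they are shown as the members' closest sequences to that consensus. Capitals mark the fixed C and G of each repeat.
Cdkn1a: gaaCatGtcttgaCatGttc
Ccng1: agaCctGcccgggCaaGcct
Trp53: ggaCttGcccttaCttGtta
Sesn1: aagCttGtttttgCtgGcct
The Cdkn1a window (chr17:29090928-29090947, plus strand) and the Ccng1 window (chr11:40755462-40755481, minus strand) each matched at 19 bases. A match that good lay in 0.067% of all 32851 promoters. The Cdkn1a window lies 2831 bases upstream of the second annotated Cdkn1a start. The windows of Trp53 (chr11:69580284-69580303, plus strand) and Sesn1 (chr10:41887266-41887285, plus strand) matched at 17 bases, and 1.38% of promoters reach 17 or more. The best windows of Phlda3, Ei24, Mdm4 and Mdm2 matched at 15, 13, 13 and 11 bases, and 15 or more occurred in 12.4% of promoters. A match describes the letters only, and no binding was measured.

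The files held 60220620 to 77138004 reads in genes, and no member had fewer than 482 reads in any file. Each knockdown held the lowest level of its target: U2af2, which encodes U2af65, had 18.4 RPKM (reads scaled by gene length and by the file's total) after siU2af65 and 90.3 RPKM or more elsewhere, Ptbp1 had 8.53 RPKM after siPtbp1 and 124 or more elsewhere, and Srrm4 had 2.50 RPKM in shnSR100 and 4.51 or more elsewhere. All 8 sympathetic neuroblast markers were present, with a summed level of 556 to 863 RPKM over the 6 files. The 6 fibroblast markers summed to 12.2 RPKM in shnSR100 and 7.27 RPKM in shGFP, against 0.41 to 0.84 RPKM in the siRNA libraries. Markers of immune, endothelial, epithelial and glial cells summed to at most 9.38 RPKM in any file. The defining markers Ptprc (immune), Kdr (endothelial) and Col3a1 (fibroblast) were listed at 0.00 RPKM in all 6 files, but other genes of the same lists were present. Pecam1 (endothelial) had 9.15 RPKM in siU2af65 and 4.54 to 6.62 RPKM in the other files, Tyrobp (immune) reached 3.41 RPKM in siU2af65, and Dcn and Pdgfra (fibroblast) reached 5.70 and 5.82 RPKM in shnSR100. In bulk RNA, fewer cells of a type and less RNA per cell cannot be told apart. The p53 relative Trp63 was listed at 0.00 RPKM throughout, and Trp73 at 0.04 RPKM or less.

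**Figure D1:**
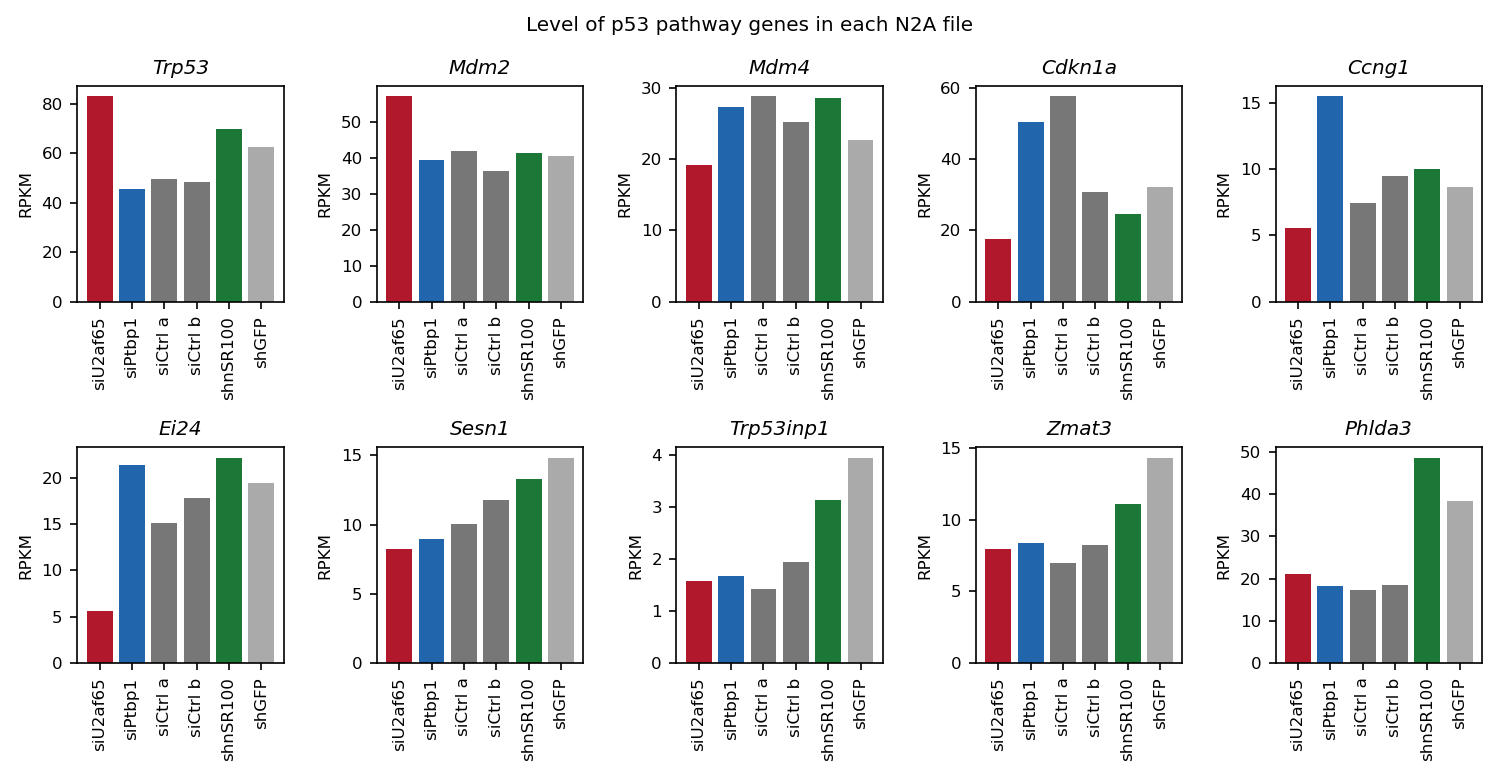
Level in RPKM (vertical axes, each starting at 0) of the 10 p53 pathway genes, 1 bar per file. Trp53 and Mdm2 are highest in siU2af65, Cdkn1a and Ei24 are lowest there, Ccng1 is highest in siPtbp1, and Phlda3, Zmat3 and Trp53inp1 are highest in the hairpin files.

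After U2af65 knockdown, fitted differences of p53 mRNA and its targets had both signs. Of the 10 genes, 1 fell, the target Ei24, and none rose, by edgeR's quasi-likelihood test with Benjamini-Hochberg adjusted p under 0.05 over all 11237 genes tested. Among all genes, 3.42% fell and 1.82% rose in the same comparison, so that the calls split into 205 higher and 384 lower, or 581 and 581 with library totals in place of TMM scaling. Fitted log2 differences were positive for 3 members and negative for 7, with a median of -0.35 against -0.00 over all genes tested. At an unadjusted p under 0.05 were 5 members, and 2645 genes in all.

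Trp53 had 83.1 RPKM in siU2af65, against 49.4 and 48.3 RPKM in controls a and b. The U2af65 library was the highest of the 6, and in RPKM the controls differed little (48.8 ± 0.827 RPKM, SD, n = 2). After TMM scaling, which the fit used, control b lay at a log2 difference of -0.16 from control a. The fitted log2 difference was 0.66 (SE 0.21), and edgeR's adjusted p of 0.0920 did not pass. It passed in 2 of 6 alternative settings, library totals and limma, with adjusted p from 0.00719 to 0.486. Mdm2 had 57.0 RPKM in siU2af65 and 41.8 and 36.4 RPKM in the controls, again above both (log2 difference 0.44, SE 0.22, edgeR adjusted p = 0.269).

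Mdm4 stood on the other side: 19.2 RPKM in siU2af65, against 28.8 and 25.2 RPKM in the controls. This was the lowest Mdm4 level of the 6 files, and the fitted log2 value of -0.60 (SE 0.23) missed the threshold (edgeR adjusted p = 0.157). The ratio of Mdm2 to Mdm4, which does not depend on how libraries are scaled and was computed after the values had been seen, was 2.97 in siU2af65. It was 1.44 in siPtbp1, and 1.45 and 1.44 in controls a and b. In the hairpin files it was 1.45 in shnSR100 and 1.78 in shGFP, so the siU2af65 library was the highest of the 6 on this measure. RefSeq places the pseudogene Gm29257 and the noncoding gene Gm41953 over Mdm4, and retains a Trp53 pseudogene and an Mdm4 pseudogene elsewhere. The strand rule of the counting was not given in the sources used here, so how these genes share reads is uncertain.

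Cdkn1a encodes p21, the cyclin-dependent kinase inhibitor through which p53 halts the cell cycle. It had 17.5 RPKM in siU2af65, against 57.8 and 30.7 RPKM in controls a and b. The siU2af65 value was below both controls, but the controls themselves differed widely (44.3 ± 19.1 RPKM, SD, n = 2). The fitted log2 difference was -1.46 (SE 0.42, edgeR adjusted p = 0.0728), which did not pass, while 4 of 6 alternatives passed and their adjusted p ran from 7.21e-06 to 0.504. Against control b alone the log2 difference was -0.86, and against control a alone -1.89, so the control used changes the size but not the sign.

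Ei24, a membrane protein of the endoplasmic reticulum that p53 induces and that acts in autophagy, had 5.57 RPKM in siU2af65. It had 15.1 and 17.8 RPKM in the controls, and so lay below both. Ei24 fell to 31.5% of the control level (log2 difference -1.66, SE 0.28, edgeR adjusted p = 0.0163). The difference was -1.61 against control a alone and -1.72 against control b alone. The call was lost when shGFP was added to the controls, where the difference was -1.71 and edgeR's adjusted p 0.389. None of the 11237 genes tested was called in that setting. Its range over the 6 alternatives was 1.54e-06 to 0.389 as an adjusted p. The noncoding gene Gm26787 overlaps Ei24 in RefSeq, as 4930429B21Rik overlaps Zmat3, with the same uncertainty.

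Ccng1, cyclin G1, a feedback regulator that acts on Mdm2 with a phosphatase, had 5.57 RPKM in siU2af65, against 7.39 and 9.49 RPKM in the controls. It was the lowest Ccng1 value of the 6 files, and the log2 difference of -0.70 (SE 0.27) did not pass (edgeR adjusted p = 0.154). Sesn1, a sestrin that restrains growth signalling through mTORC1 under stress, had 8.21 RPKM in siU2af65, against 10.1 and 11.8 RPKM in the controls (log2 difference -0.51, SE 0.26, edgeR adjusted p = 0.277). Cdkn1a and Ccng1, whose p53 windows above are the closest of the members, lay below both controls without passing, and 39.5% of all genes tested lay below both. Trp53 and Sesn1, with the next closest windows, lay on opposite sides of their controls. Ei24, the only member called, had a best window of 13 matching bases. Whether windows and differences go together was not tested.

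The other 3 targets lay near the controls. Phlda3, an inhibitor of Akt, had 21.2 RPKM in siU2af65 and 17.3 and 18.5 RPKM in the controls (log2 difference 0.14, SE 0.27). Zmat3, a zinc finger RNA-binding protein, had 7.94 RPKM in siU2af65 and 6.95 and 8.22 RPKM in the controls (log2 difference -0.03, SE 0.22). Trp53inp1, a stress protein that acts in autophagy and with p53, had 1.57 RPKM in siU2af65 and 1.42 and 1.94 RPKM in the controls (log2 difference -0.20, SE 0.40). None of the 3 passed, and the sign of Zmat3 turns with library totals and that of Phlda3 with shGFP among the controls. Their edgeR adjusted p ran from 0.807 to 0.948. On TMM-scaled CPM (reads scaled by the library's total and TMM factor, not by length), siU2af65 lay above both controls for 3 members (Trp53, Mdm2 and Phlda3), as it did for 40.6% of all genes tested. It lay below both for 6 members (Mdm4, Cdkn1a, Ccng1, Ei24, Sesn1 and Trp53inp1), as for 39.5% of genes. Trp53inp1 is below both on that scale and between them in RPKM. The immune marker Tyrobp rose in the same library, with 3.41 RPKM in siU2af65 and 0.27 and 0.70 RPKM in controls a and b (log2 difference 2.68, edgeR adjusted p = 0.0368), while Ptprc was at 0.00 RPKM. Over whole lists, siU2af65 against the controls had summed levels of 3.85 RPKM against 0.64 and 1.08 for 5 immune markers, 9.38 against 4.61 and 5.22 for 4 endothelial markers, and 5.13 against 2.59 and 2.71 for 4 glial markers. The part of such RNA in the members' values was not tested.

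**Figure D2:**
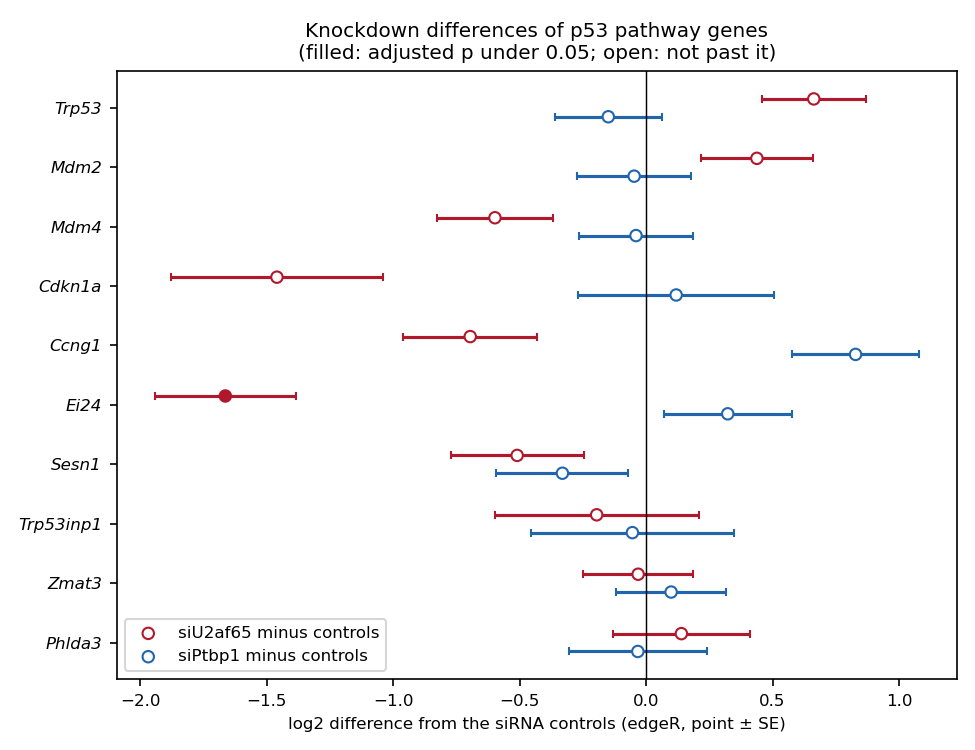
Fitted log2 difference from the siRNA controls (horizontal axis, edgeR, point ± SE) for each of the 10 genes after U2af65 knockdown (red) and Ptbp1 knockdown (blue). Filled points have an adjusted p under 0.05: this is Ei24 after U2af65 knockdown, at -1.66, and no other point.

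After Ptbp1 knockdown, set against the same controls as U2af65 knockdown, none of the 10 genes passed the test in either direction (edgeR). Only 3 genes of 11237 passed, all lower, which is 0.0267% of those tested. At an unadjusted p under 0.05 were 481 genes, among them 1 member, Ccng1. By DESeq2 the same comparison called 20 genes, none of them a member. The members' fitted differences were positive for 4 and negative for 6, with a median of -0.04 against 0.01 over all genes.

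Ccng1 had 15.5 RPKM in siPtbp1, against 7.39 and 9.49 RPKM in controls a and b. This was the highest Ccng1 level of the 6 files and lay above both controls. The log2 difference was 0.83 (SE 0.25), with an unadjusted p of 0.00825 and an adjusted p of 0.829 in edgeR's fit. Ei24 had 21.3 RPKM in siPtbp1 and 15.1 and 17.8 RPKM in the controls, also above both (log2 difference 0.32, SE 0.25).

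Cdkn1a, at 50.5 RPKM in siPtbp1, lay between the controls a (57.8 RPKM) and b (30.7 RPKM). Its difference was 0.72 from control b alone, which bears the same letter, and -0.31 from control a alone, so its sign depends on the control. Trp53 had 45.7 RPKM in siPtbp1 and 49.4 and 48.3 RPKM in the controls, and Mdm2 and Mdm4, at 39.4 and 27.3 RPKM in siPtbp1, lay between their controls. For Trp53 the fitted log2 difference was -0.15 (SE 0.21), for Mdm2 -0.05 (SE 0.23) and for Mdm4 -0.04 (SE 0.22). Those SEs leave room for changes of either sign, and the p53 gene and its inhibitors are not shown to be unaltered. The remaining members had differences of -0.33 for Sesn1 (SE 0.26), -0.05 for Trp53inp1 (SE 0.40), 0.10 for Zmat3 (SE 0.22) and -0.03 for Phlda3 (SE 0.27). Apart from Sesn1, these 3 and Mdm2 and Mdm4 turn sign in at least 1 other setting. By TMM-scaled reads, siPtbp1 lay above both controls for Ccng1, Ei24 and Zmat3, as for 34.8% of all genes. It lay below both for Trp53, Sesn1 and Phlda3, as for 28.9% of genes.

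Set directly against each other in the same fit, the knockdowns differed in 2 members. Ccng1 had 5.57 RPKM in siU2af65 and 15.5 RPKM in siPtbp1, and edgeR gave -1.52 as the log2 difference, with SE 0.30 and adjusted p = 0.0293. Ei24 had 5.57 RPKM in siU2af65 and 21.3 RPKM in siPtbp1, and edgeR gave -1.99 as the log2 difference, with SE 0.31 and adjusted p = 0.0155. Both were lower in siU2af65, as were 2.54% of all genes in this contrast, and no member was higher, against 1.09% of all genes. Ccng1 lies below its controls in one knockdown and above them in the other, and neither of those differences passed by itself. Cdkn1a (-1.58, SE 0.46, edgeR adjusted p = 0.0890) and Trp53 (0.81, SE 0.24, edgeR adjusted p = 0.0964) did not pass in this contrast. Cdkn1a passed in 4 of its 6 alternatives and Trp53 in 2 (library totals and limma). The comparison sets 1 library against 1 library with different letters, so the knockdown and whatever the letter stands for cannot be told apart. The Ccng1 call is lost with a minimum of 5 RPKM, and both calls are lost with shGFP among the controls. Over the 6 alternatives the edgeR, DESeq2 or limma adjusted p of Ccng1 ran from 1.03e-04 to 0.581 and that of Ei24 from 2.66e-07 to 0.581.

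With no knockdown between them, the control libraries also differed. Cdkn1a had 30.7 RPKM in control b and 57.8 RPKM in control a, a ratio of 0.532 in CPM by library total (95% exact binomial interval 0.5 to 0.566, counting error only). No member was past 2-fold between the controls, against 4.25% of genes, although Cdkn1a passes it after TMM scaling, at 0.48. Cdkn1a was the least steady member between controls. By library total the next were Trp53inp1, at 1.36, and Ccng1, at 1.28. With TMM scaling of the siRNA libraries, the log2 difference of b from a was 0.33 for Trp53inp1, -0.32 for Mdm2, -0.31 for Mdm4 and 0.24 for Ccng1.

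After nSR100 knockdown no member was past 2-fold. Among 11709 genes measured in the pair of hairpin files, 226 were, or 1.93%. There is 1 file per group, so no test was made, and the intervals below (95%, exact binomial on reads) cover counting error and not the spread between cultures.

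Members differed between the hairpin files in both directions. Phlda3 had 48.6 RPKM in shnSR100 and 38.3 RPKM in shGFP (ratio of CPM 1.27, interval 1.21 to 1.33). Mdm4 had 28.5 RPKM in shnSR100 and 22.7 RPKM in shGFP (ratio 1.26, interval 1.21 to 1.31). Trp53 had 69.9 RPKM in shnSR100 and 62.5 RPKM in shGFP (ratio 1.12, interval 1.08 to 1.16). These and Ccng1 (ratio 1.16) and Ei24 (ratio 1.14) make up the 5 members whose interval lies above 1.  The share of all genes whose interval leaves out 1 was not computed. With this many reads small ratios suffice, so the counts of members here and below set none of them apart.

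On the lower side, Cdkn1a had 24.6 RPKM in shnSR100 and 32.3 RPKM in shGFP (ratio 0.761, interval 0.704 to 0.822). Zmat3 had 11.1 RPKM in shnSR100 and 14.3 RPKM in shGFP (ratio 0.774, interval 0.747 to 0.802). The ratio was 0.794 for Trp53inp1 and 0.898 for Sesn1, and these 4 members have intervals below 1. Mdm2, at 41.4 RPKM in shnSR100 and 40.3 RPKM in shGFP, had a ratio of 1.03 (interval 0.995 to 1.06), and 0.999 after TMM scaling. Cdkn1a's ratio of 0.761 is nearer to 1 than the 0.532 seen between the siRNA controls, which carry no knockdown.

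**Figure D3:**
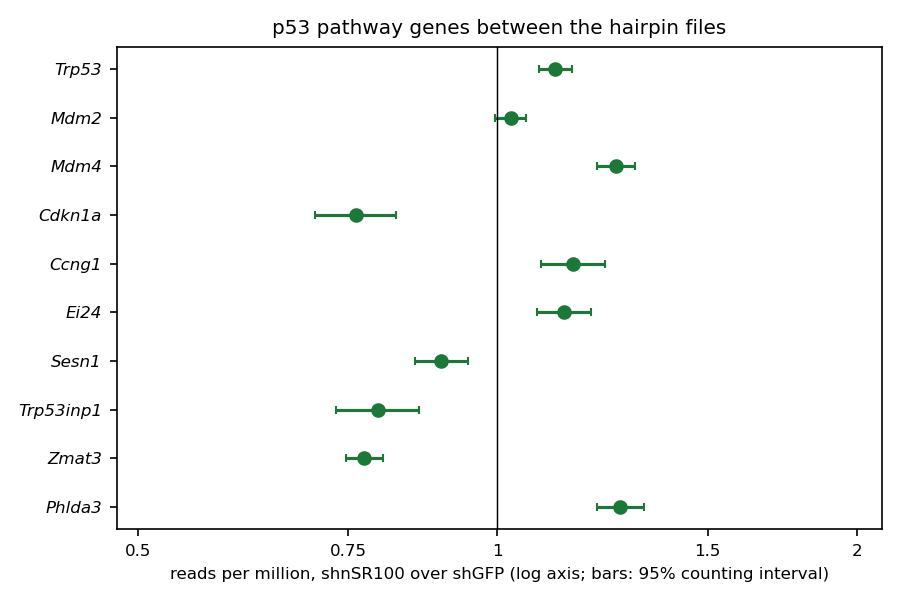
Ratio of CPM in shnSR100 over shGFP (horizontal log axis) for the 10 genes, with 95% counting intervals as bars. Points run from 0.761 (Cdkn1a) to 1.27 (Phlda3), all inside the 2-fold limits, and the bars do not include the spread between cultures.

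Some targets differed between hairpin and siRNA cells, a comparison with no replicate cultures and no test. Phlda3 had 48.6 and 38.3 RPKM in shnSR100 and shGFP, and 17.3 to 21.2 RPKM in the 4 siRNA libraries. Trp53inp1 had 3.14 and 3.95 RPKM in the hairpin files and 1.42 to 1.94 RPKM in the siRNA libraries. Zmat3 had 11.1 and 14.3 RPKM in the hairpin files and 6.95 to 8.40 RPKM in the siRNA libraries. For all 3 the hairpin files stood wholly above the siRNA libraries, shGFP included.

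In CPM by library total, both hairpin files lay above all 4 siRNA libraries for 4 members (these 3 and Sesn1), as for 29.2% of genes. They lay below all 4 for no member, against 14.7% of genes. The mean of the hairpin files over the mean of the siRNA controls was 2.43 for Phlda3, 2.11 for Trp53inp1 and 1.67 for Zmat3. With TMM scaling over the 6 files these were 2.13, 1.86 and 1.47. For Mdm2 and Ccng1 the ratio lay on either side of 1 depending on the scaling, at 1.04 and 1.10 by library total and at 0.911 and 0.969 by TMM. The hairpin cells were stable populations under puromycin and the siRNA cells were harvested after 48 hours, so selection, delivery and culture cannot be told apart here. The fibroblast markers given above were also higher in the hairpin files, with Dcn at 5.70 and 3.99 RPKM in shnSR100 and shGFP and at most 0.54 RPKM in siRNA libraries, and their part in these values was not tested.

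A wider list, also chosen with earlier results of these data known, held 49 other p53 targets. After U2af65 knockdown, of the 37 that could be tested, none rose and 2 fell (edgeR), near the shares of all genes (1.82% higher, 3.42% lower). There were 12 positive and 25 negative differences. At an unadjusted p under 0.05 (edgeR), 4 of the 37 were higher and 5 lower. Among all 11237 genes tested, 2645 were under that p in either direction, so these counts do not set the list apart. Psrc1, a microtubule-binding protein of the mitotic spindle, had 1.70 RPKM in siU2af65, against 9.89 and 9.41 RPKM in controls a and b (log2 difference -2.61, edgeR adjusted p = 0.0134). Ephx1, an epoxide hydrolase of detoxification, had 32.6 RPKM in siU2af65 and 64.1 and 55.0 RPKM in the controls (log2 difference -0.98, edgeR adjusted p = 0.0477). Median log2 differences were -0.21 for 12 growth arrest and feedback genes, -0.04 for 9 cell death genes and -0.30 for 16 DNA repair and metabolism genes, against -0.00 over all genes tested.

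Bax, a cell death target that opens the outer mitochondrial membrane, had 138 RPKM in siU2af65, against 76.6 and 78.2 RPKM in controls a and b and 75.9 RPKM in siPtbp1. Like Trp53, Bax was highest of the 6 files in siU2af65, with a log2 difference of 0.74 that did not pass (edgeR adjusted p = 0.0673). With library totals in place of TMM, 3 of the 37 passed as higher (Aen, Bax and Plk3), and with limma 4 (those and Gadd45a), while DESeq2 called none higher. These settings also called more of all 11237 genes higher than the 205 of the main fit: 581 with library totals, 655 with limma and 339 with DESeq2. Aen is a nuclease, Plk3 a stress kinase and Gadd45a a DNA damage response gene. None of the 21 tested regulators and partners of p53 passed. Cdkn2a, whose locus encodes the Mdm2 inhibitor Arf, had 44.7 RPKM in siU2af65 and 79.6 and 74.97 RPKM in the controls (log2 difference -0.89, edgeR adjusted p = 0.0536).

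Genes that p53 is known to lower, by way of p21 and the DREAM repressor complex, were tested as another list of 13 cell cycle genes. This list was chosen with earlier results of these data known, so its counts are descriptive and no independent test. After U2af65 knockdown 7 of 13 fell (edgeR), where 3.42% of all genes did. All 13 differences were negative and their median was -0.96, against -0.00 over all genes. The 7 were the mitotic kinases Aurkb (-1.56) and Plk1 (-1.08), the cyclins Ccna2 (-1.75) and Ccnb2 (-1.33), the phosphatase Cdc25c (-1.95), the spindle protein Kif23 (-1.39) and the anaphase activator Cdc20 (-0.96), as log2 differences. Cdkn1a, the arm of the pathway that acts on them, lay below both controls in the same library, as did 39.5% of all genes tested. Its difference did not pass (edgeR adjusted p = 0.0728), p21 protein was not measured, and a link to the fall of these genes was not tested. With shGFP among the controls none of the 13 passed, nor did any other gene tested. With a minimum of 5 RPKM, 5 of the 13 passed.

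After Ptbp1 knockdown none of the 37 other targets and none of the 13 cell cycle genes passed (edgeR), with medians of 0.00 and 0.11. Ddit4 fell in this comparison with library totals and with limma only, settings that called 72 and 70 of all 11237 genes lower. It had 177 RPKM in siPtbp1, against 579 and 222 RPKM in controls a and b, which themselves differed widely. Set directly against siPtbp1, siU2af65 was lower in 5 of the 13 cell cycle genes (Aurkb, Ccna2, Ccnb2, Kif23 and Cdc25c) and in 1 of the 37 other targets, Psrc1 (-2.58), where 2.54% of all genes were lower.

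Between the hairpin files none of 41 other targets was past 2-fold. Their ratios of shnSR100 over shGFP ran from 0.542 for Btg2, an antiproliferative gene, to 1.65 for Gls2, a mitochondrial glutaminase, with a median of 1.017 against 1.027 over all genes. The 13 cell cycle genes, a list chosen with earlier results known, all had ratios above 1. They ran from 1.45 (Cdc25c) to 1.80 (Birc5), with a median of 1.62. The share of all genes with ratios this high was not computed. Cdkn1a had a ratio of 0.761 in the same pair, nearer to 1 than its 0.532 between the siRNA controls. With 1 file per group, a link between Cdkn1a and these genes was not tested.

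**Figure D4:**
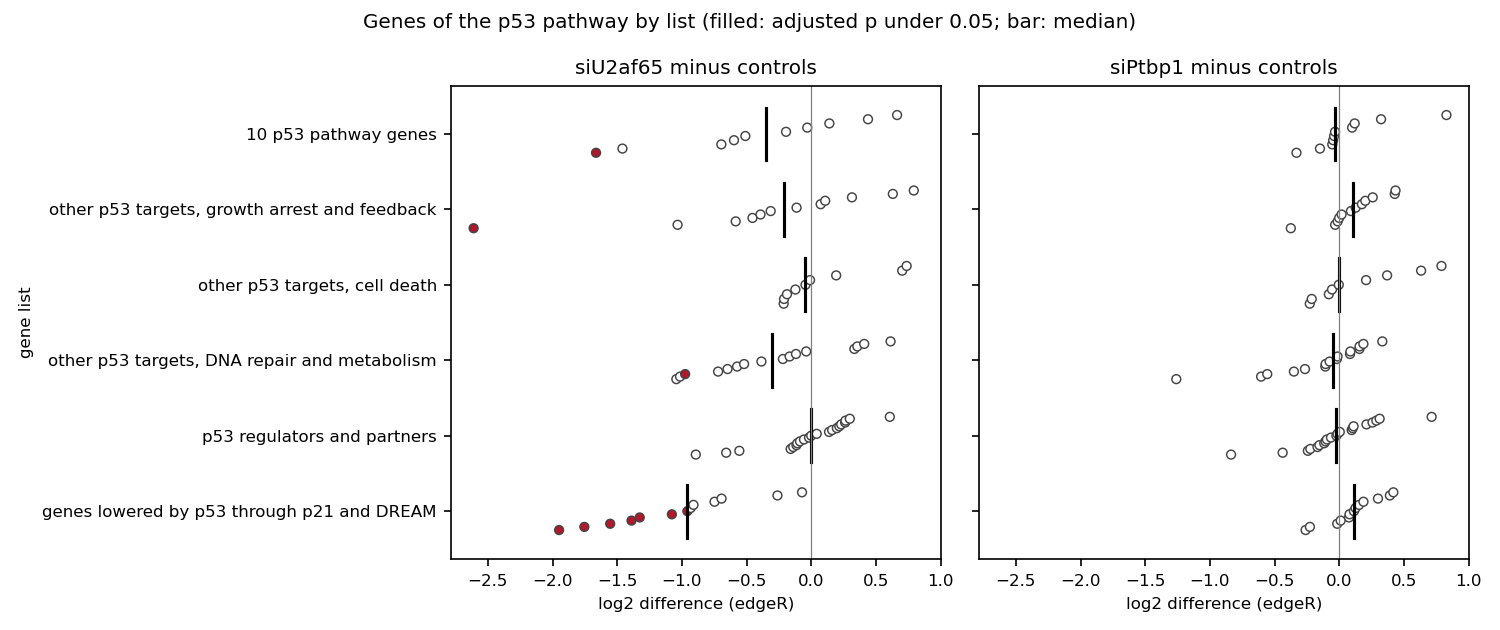
Fitted log2 difference (horizontal axes, edgeR) of each tested gene of 6 p53 lists after U2af65 knockdown (left) and Ptbp1 knockdown (right); filled points have an adjusted p under 0.05 and black bars are list medians. On the left, 7 of 13 genes lowered through p21 and DREAM are filled with a median of -0.96, and no point is filled on the right.

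For 3 members the genes closest in pattern over the 6 files were listed, among 9155 genes that averaged 5 RPKM or more, by the root mean square difference of centred log2 CPM. Closest to Trp53 were Frs3 (0.0343), Tdrd3 (0.0441) and Ebna1bp2 (0.0646), where Trp53 itself varied with an SD of 0.269. Closest to Ei24 were Mtx1 (0.0876), Nme1 (0.107) and Syngr2 (0.114), where Ei24 varied with an SD of 0.684. Like Ei24, each of these 3 was lowest in siU2af65, with Mtx1 at 8.19 RPKM there and 19.2 and 25.2 RPKM in controls a and b. The nearest genes to Cdkn1a were farther off: Zfp36 (0.161), Dlg4 (0.189) and Usp28 (0.191), where Cdkn1a varied with an SD of 0.655. No member was among the closest genes of these 3, but only 3 of the 9155 genes were listed for each. Trp53inp1 was under the minimum of 5 RPKM and could not appear. Whether the members vary together was not tested.

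Ranked by how far their highest file exceeds their lowest in RPKM, the members run from Ei24 (3.97-fold), Cdkn1a (3.31-fold), Phlda3 (2.80-fold), Trp53inp1 and Ccng1 (both 2.78-fold) and Zmat3 (2.06-fold), to Trp53 (1.82-fold), Sesn1 (1.81-fold), Mdm2 (1.57-fold) and, lowest of the 10, Mdm4. The targets other than Sesn1 and Mdm2 thus varied more over the 6 files than p53 mRNA did. The extremes of different members lie in different files, with Ei24 and Cdkn1a lowest in siU2af65, Ccng1 highest in siPtbp1 and Phlda3 highest in shnSR100.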

How the data were processed

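The deposited files hold, per Ensembl gene and with no header, an RPKM value and a raw read count that the authors made. Bowtie, bedtools 2.17.0 and, as the build, mm9 appear per the submitters' processing notes; counting rule, strand and annotation are not given in the sources used here. A blank count was read as 0, and 1114 genes had no RPKM. Symbols were matched to 20759 of 22667 identifiers. The members, lists and tests were chosen with earlier results of these data known.

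edgeR 4.0.16 (R 4.3.3; quasi-likelihood, TMM) was run on the counts of the 4 siRNA libraries, for 11237 genes averaging 1 RPKM or more, with Benjamini-Hochberg adjustment. The control pair gives the only residual degree of freedom (1), moderated by 8.65 prior degrees; a lone knockdown library is assumed to vary like the controls. The SE is the log2 difference divided by the square root of F. On simulated counts for the U2af65 comparison (11237 genes) edgeR recovered 98 of 100 4-fold and 35 of 100 2-fold changes, with 6 false calls. Every simulated gene had the same dispersion (0.0375), and unchanged genes had the same mean share of reads in all libraries. Spread that differs by gene, or by letter, was not simulated, so these rates hold for that setting and not for the real libraries. Alternatives used library totals, DESeq2 1.42.0, limma 3.58.1 on log2(RPKM + 1), other RPKM filters, shGFP as a further control, and each control alone. Named genes were all members, other listed genes that passed a test, and the 3 nearest in pattern; Bax, Cdkn2a, Btg2, Gls2, Birc5 and marker genes were named after their values were seen. The 293T and crosslinking samples were not used here.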

Additional observations from a re-analysis of the deposited data

How the results depend on the processing

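Genes called after U2af65 knockdown numbered 589 (205 higher, 384 lower). They were 1162 with library totals (581 higher, 581 lower), 1045 with DESeq2, 1285 with limma (655 higher, 630 lower), 1649 with no filter, 257 with a minimum of 5 RPKM and 0 with shGFP added to the controls. After Ptbp1 knockdown 3 were called, against 86 with library totals (14 higher, 72 lower), 20 with DESeq2, 99 with limma, 99 with no filter, 1 with a minimum of 5 RPKM and 0 with shGFP added. Of the members, 1 was called after U2af65 knockdown, against 3 with library totals and 3 with limma (Trp53, Cdkn1a and Ei24), 2 with DESeq2 and 2 with no filter (Cdkn1a and Ei24), and 0 with shGFP added. Between the knockdowns 2 members were called, against 4 with library totals and 4 with limma (also Trp53 and Cdkn1a), 3 with DESeq2 and 3 with no filter (also Cdkn1a), 1 with a minimum of 5 RPKM (Ei24) and 0 with shGFP added. Between the controls no member was past 2-fold, against 1 with TMM scaling and 1 at a 1.5-fold limit, Cdkn1a each time. The cause of these changes was not tested.

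In the tested alternatives signs turned for the members below, none of them called. After U2af65 knockdown the log2 difference of Zmat3 was 0.07 with library totals and 0.06 with limma, and that of Phlda3 was -0.26 with shGFP added. After Ptbp1 knockdown Mdm2 was at 0.01 with library totals and 0.01 with limma, Mdm4 at 0.02 with library totals, 0.02 with limma and 0.07 with shGFP added, and Phlda3 at 0.02 with library totals and 0.02 with limma. Trp53inp1 was at 0.00 with limma and Zmat3 at -0.22 with shGFP added. Over 177 tested alternatives of 30 differences of single members, 149 kept direction and side of the threshold, 12 turned direction, 12 passed the test where it had not been passed and 4 no longer passed. Trp53inp1 is under the minimum of 5 RPKM. Leaving out a control leaves no spread to test, so those values are differences with no call, and 5 of 40 had the other sign. Without control b these were Cdkn1a (-0.31) and Trp53inp1 (0.12) after Ptbp1 knockdown and Zmat3 (0.03) after U2af65 knockdown. Without control a they were Mdm2 (0.12) and Mdm4 (0.12) after Ptbp1 knockdown. No paired analysis was possible because each knockdown shares its letter with 1 control only, which leaves no residual degrees of freedom, and the hairpin runs were pooled. With 1 library per knockdown, 35 of 100 simulated 2-fold changes were recovered for the U2af65 comparison, so a member without a call is not shown to be unaltered.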
